A study of Mus musculus with 20 samples.

Results

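RNA levels were compared between mouse CD8 T cells activated for 24 h with antigen and B7-1 and the naive cells from which such cultures start. The activated cells were represented by 1 array and the naive cells by 3 arrays, of 20 arrays in the series. All cells carried the OT-I T cell receptor transgene on the C57Bl6 strain and came from lymph nodes of mice aged 6 to 8 weeks, from which cells low in CD44 and positive for CD8 had been enriched by removing the other cells. Naive cells (0 h) had received no stimulus. The Ag-B7 cells were cultured on latex microspheres coated with B7-1 and with the H-2Kb molecule holding the OT-I peptide, and human IL-2 was in every culture, so the effect of IL-2 cannot be told apart from that of Ag-B7 in these groups. Another pair of 24 h arrays, from the same stimulus with murine IL-12 (Ag-B7+IL12) or with universal type I interferon (Ag-B7+IFNa/b), served as a check of which changes were common to 24 h cells. The 4 Ag-B7 arrays at 48 h and the Ag-B7 array at 72 h gave the later levels. Whether RNA of several mice was pooled is not given in the sources used here.

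A T cell leaves its resting state when its receptor binds antigen (the first signal) while CD28 binds a B7 protein (the second signal). In the hours that follow, the cell is known to enlarge, to raise its uptake of sugar and amino acids, to make ribosomes, to enter the cell cycle, to secrete cytokines and to lose the receptors that keep it circulating through lymph nodes. The transcription factors MYC and IRF4 are known drivers of this growth, and KLF2 and FOXO factors of the resting state.

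Values are microarray intensities, and differences are on the scale log2(intensity + 46.4), on which a difference of 1 is 2-fold and changes of dim genes are understated. Of 8251 genes with a probe set of their own, 6185 were above the 40th percentile of an array on at least 2 of the 6 naive and 24 h arrays. In what follows a gene "rose" or "fell" when the Ag-B7 24 h array was at least 2-fold from the mean of the naive arrays and also outside their range. No test was run, since the 24 h groups have 1 array each, and the error given is the SD of the 3 naive arrays. Levels of different probe sets are not comparable with each other. Fewer cells of a type and less RNA per cell cannot be told apart in these samples.

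The naive arrays were the less uniform group. They correlated with each other at 0.819 to 0.928 across the kept genes, and the Ag-B7 24 h array correlated with them at 0.515 (naive replicate 2) to 0.738 (naive replicate 1). The ratio of 3' to 5' signal of a gene rises as RNA breaks down. For actin it was 1.13, 2.06 and 1.61 on naive replicates 1, 2 and 3 and 1.05 on the Ag-B7 24 h array. For Gapdh it was 0.733, 0.946 and 0.872 on these naive arrays and 0.808 on the Ag-B7 24 h array, within the naive values. Median intensity was 364 to 507 on naive arrays and 232 on the Ag-B7 24 h array. The spiked-in bacterial controls averaged 13.39, 14.86 and 14.53 on the log2 scale on naive replicates 1, 2 and 3. On the Ag-B7 24 h array they averaged 12.22, so they differed within the naive group as well as from it. The part of these differences in the results was not tested. Scaling sets where zero lies: the median difference of all kept genes was -0.32 on the values as deposited, 0.01 after quantile normalization, 0.52 when the arrays were set to 1 median and 1.47 when they were set to 1 level of the spiked-in bacterial controls. Differences given below are on the deposited values, and the position relative to the median gene is given for the gene lists, other than marker lists, whose median turned in sign with the scaling.

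On the Ag-B7 24 h array 1209 genes rose (19.5% of those kept), 1996 fell (32.3%) and 2980 did neither. Changes of at least 8-fold numbered 103 upward and 91 downward. The split depended on the scaling, with 1518 higher and 1312 lower after quantile normalization, 2372 and 726 with equal medians, and 3753 and 140 with equal spike-in controls. The largest rises were those of Cdk1, Top2a, Cks1b, Gzmb and Ccl4, and the largest falls those of Vps37b, Klf2, Tnfaip3, Irf7 and Fos, on the deposited scale. Cd8a, the CD8 alpha chain, differed by -0.08 (naive SD 0.43), with intensities of 14482, 9883 and 8015 in naive cells and 9925 at 24 h.

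**Figure D1:**
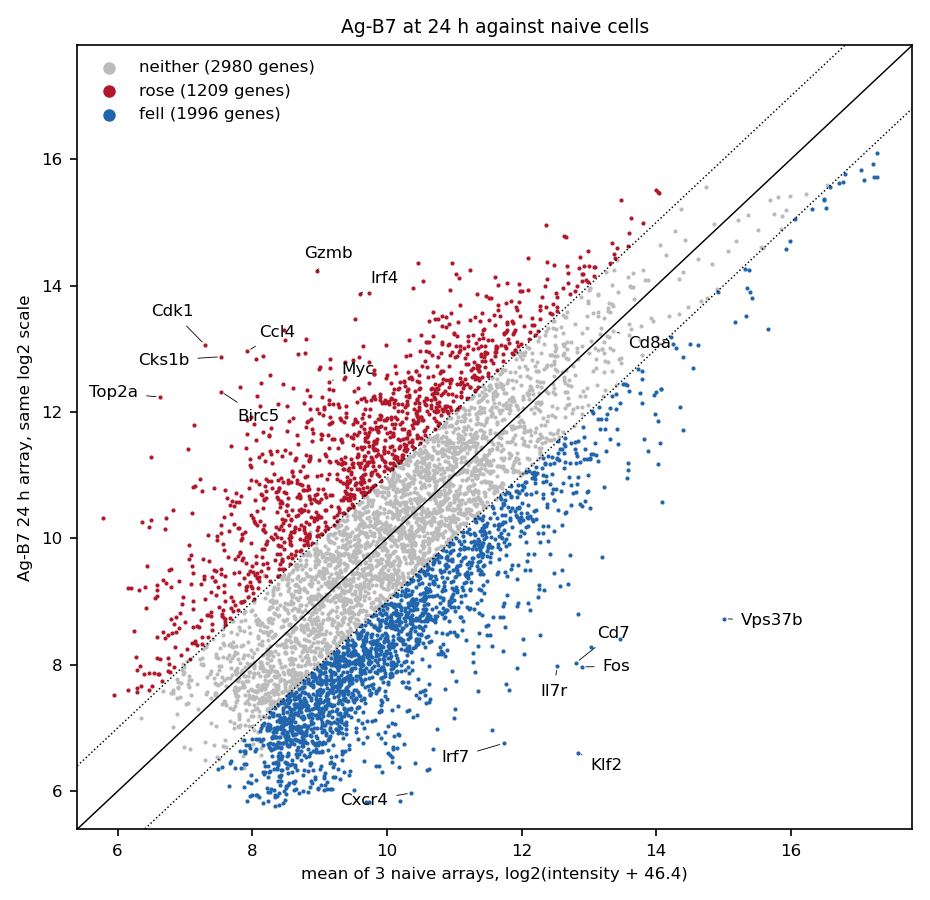
Each point is 1 of 6185 genes, with the mean log2 level of the 3 naive arrays on the horizontal axis and the log2 level on the Ag-B7 24 h array on the vertical axis. The solid line marks equal levels and the dotted lines 2-fold differences. Red points rose (1209) and blue points fell (1996) on the deposited values, and Cdk1, Top2a and Cks1b lie farthest above the line, Vps37b and Klf2 farthest below it.

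The 3 arrays at 24 h were close to each other. The Ag-B7 array correlated with the Ag-B7+IL12 array at 0.977 and with the Ag-B7+IFNa/b array at 0.98, across genes. On all 3 arrays 1044 genes were higher (16.9% of those kept, 86.4% of the genes that rose on the Ag-B7 array) and 1548 were lower (25%, 77.6% of those that fell). These arrays were set against the same naive arrays, so the overlap is partly fixed by them. Below, "on all 3 arrays" refers to this check.

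Genes of chromosome segregation and mitosis made up the strongest rise. Of 38 kept members of this list, 31 rose and 0 fell, the same 31 rose on all 3 arrays, and the median difference was 2.64 against -0.32 for all genes. Cdk1, the kinase that starts mitosis, had intensities of 121, 131 and 85.5 on the naive arrays and 8497 on the Ag-B7 24 h array, and 9248 and 8502 on the Ag-B7+IL12 and Ag-B7+IFNa/b arrays. The difference was 5.76 (54.3-fold) with a naive SD of 0.22, and no 24 h value came near the naive range. Top2a, the topoisomerase that untangles sister chromosomes, went from 31.3, 67 and 64.1 to 4777, a difference of 5.60 (naive SD 0.30). Cks1b, a partner of the cell cycle kinases, went from 205, 103 and 126 to 7470, a difference of 5.33 (naive SD 0.39). Birc5, the survivin gene of the chromosomal passenger complex, was at 179, 147 and 99.1 in naive cells and at 5083 at 24 h. On the other 24 h arrays Cks1b and Birc5 were between 4256 and 7510. Mki67, a proliferation marker, rose by 4.66 on the probe set used, while its other probe set differed by -2.13. Smc4, a condensin subunit, and Pttg1, securin, were among the 7 that did neither, with differences of 0.35 and -0.34.

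DNA replication genes moved with them. Among 36 kept members 27 rose, 0 fell and 26 rose on all 3 arrays, with a median of 1.99. Uhrf1, which carries DNA methylation marks through replication, went from 338, 230 and 225 to 6110 (difference 4.33, naive SD 0.28). Prim1, the primase subunit that lays down primers, went from 97.4, 167 and 61.6 to 1919, a difference of 3.72. Rfc4 of the clamp loader rose by 3.51 and Orc6 of the origin recognition complex by 3.39, the latter with a wide naive spread (SD 1.43), since naive replicate 2 was at 102 and the other naive arrays at 827 and 732. Pcna, the sliding clamp itself, was already bright in naive cells at 5562, 2039 and 7128, and reached 22139. The helicase subunits Mcm2, Mcm3, Mcm4, Mcm5 and Mcm7 rose by 1.28 to 2.61. Mcm5 had a further probe set at -1.96. Supply of DNA precursors followed the same pattern, with 14 of 23 nucleotide synthesis genes up and 1 down (Dhodh, of pyrimidine synthesis, -1.24). Rrm2, the small subunit of ribonucleotide reductase, went from 207, 743 and 375 to 7773, a difference of 4.16, and Tk1, thymidine kinase, rose by 3.16. Regulators of the step from G1 to S phase were mixed, with 6 of 22 up and 5 down and a median of 0.40. Of all kept genes 19.5% rose and 32.3% fell. Tfdp1, the partner of E2F factors, rose by 4.14, Cdk4 by 1.69 and Ccnd2 by 1.74, while Ccng2, an atypical cyclin of arrested cells, fell by 2.73 and Cdkn1b, the p27 inhibitor, by 1.46.

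E2F factors are known to bind TTTGGCGC and TTTCCCGC before replication genes, and because these genes moved together their promoters were searched for those letters on both strands. In RefSeq sequences from 250 bases before to 50 bases after each start (GRCm38.p6), 8 of the 25 replication genes that rose and had a promoter held a match (32.0%), against 5.17% of all genes that rose and 1.8% of all genes with a promoter. Among all kept replication genes with a promoter, risen or not, 10 of 33 held a match (30.3%), close to the share of those that rose. A match is a description of the letters and not a site of binding. Windows before the starts of 3 genes that rose are shown with the match in capitals, Cdc6 (chr11:98907988-98908045, plus strand), Mcm7 (chr5:138172016-138172073, minus strand) and Pola1 (chrX:93632261-93632318, minus strand), each read along the gene, so that a match on the other strand reads GCGGGAAA or GCGCCAAA.
Cdc6: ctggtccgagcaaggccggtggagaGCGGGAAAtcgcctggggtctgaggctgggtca
Mcm7: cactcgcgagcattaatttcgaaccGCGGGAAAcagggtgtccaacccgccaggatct
Pola1: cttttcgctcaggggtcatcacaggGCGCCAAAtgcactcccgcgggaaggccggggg
All 3 matches lie within 165 bases of the start. Cdc6, the licensing factor, rose by 3.02, Pola1, the catalytic subunit of DNA polymerase alpha, by 2.27 and Mcm7 by 2.16.

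Growth genes rose with the cell cycle. Of 38 kept genes of the MYC, polyamine and ribosome biogenesis list, 26 rose, 4 fell and 26 rose on all 3 arrays, with a median of 1.52. Myc itself was at 696, 419 and 469 in naive cells and at 5646 on the Ag-B7 24 h array, a difference of 3.34 (naive SD 0.35), and at 4981 and 5958 on the other 24 h arrays. Srm, spermidine synthase, went from 1364, 1527 and 1041 to 15850 (difference 3.57, naive SD 0.27), while Odc1, the rate-limiting enzyme of polyamine synthesis, rose by 1.21. Nucleolar factors that rose included Ebna1bp2 by 3.31, Nhp2 by 3.06, Nop2 by 2.82, Nop16 by 2.80 and Nop56 by 2.53. Subunits of RNA polymerase I did neither, with Polr1a at 0.79, Polr1b at 0.31 and Polr1c at 0.32. Of the 4 members that fell, Mxd4, Mxd1 and Mxi1 encode repressors that compete with MYC for MAX. Mxd4 went from 3668, 1920 and 3787 to 78.8, a difference of -4.60 (naive SD 0.54), and Mxd1 from 1718, 166 and 1617 to 10.3. Naive replicate 2 stood apart for Mxd1, and even there it was above each 24 h array.

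CACGTG is the letter sequence bound by MYC and MAX and by the MXD repressors. It reads the same on both strands. It was in the promoter of 6 of the 21 rising members with a RefSeq promoter (28.6%), against 13.7% of all genes that rose and 8.09% of all genes with a promoter. Of the windows that follow, with the match in capitals, Nop2 (chr6:125131798-125131853, plus strand), Ldha (chr7:46845634-46845786, plus strand) and Dnph1 (chr17:46496747-46496788, plus strand) belong to genes that rose, and Mxd4 (chr5:34187899-34187954, minus strand) to one that fell.
Nop2: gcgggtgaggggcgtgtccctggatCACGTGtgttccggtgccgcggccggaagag
Ldha: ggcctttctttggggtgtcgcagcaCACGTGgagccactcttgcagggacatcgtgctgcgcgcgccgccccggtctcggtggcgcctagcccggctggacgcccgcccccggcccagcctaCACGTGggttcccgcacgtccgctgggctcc
Dnph1: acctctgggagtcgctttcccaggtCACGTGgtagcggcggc
Mxd4: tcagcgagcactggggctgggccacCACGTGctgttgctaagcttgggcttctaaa
The same letters thus stand before genes that moved in opposite directions. Among all kept members with a promoter, risen or not, 8 of 31 held them (25.8%). Ldha, lactate dehydrogenase A, holds 2 matches and rose by 1.88, from 14538, 9446 and 10537 to 41658.

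The machinery of protein synthesis split in parts. Translation factors and tRNA synthetases rose in 21 of 29 kept members and fell in 3, and the median was 1.61. Cars, which charges the cysteine tRNA, went from 54.3, 88.6 and 58.7 to 1348 (difference 3.63, naive SD 0.23), Gars rose by 2.82 and Farsb by 2.63. Eif4ebp1, a brake on cap-dependent initiation, rose by 2.89. Ribosomal protein genes differed from these: 1 of 23 rose (Rpl13a, 1.20) and 12 fell, with a median of -1.02, but the median turned to 0.94 with equal spike-in controls, and quantile normalization left 2 that fell and a median of -0.02. Relative to the median gene the list lay at -0.70 on the deposited values and at -0.03 after quantile normalization. Rps24 went from 104420, 200860 and 176220 to 54050, and Rps28 from 109230, 161460 and 151350 to 51869, and both turned in sign with equal spike-in controls. Naive replicate 2, which had the highest actin ratio, was also highest for both. Constitutive proteasome subunits rose in 25 of 29 members and fell in 0, with a median of 1.62. Psmd12, a lid subunit, rose by 3.32, although naive replicate 2 (78.7) was far below the other naive arrays (622 and 577), and Psma4 of the core went from 3813, 2183 and 3804 to 16523. Chaperones of the cytosol and mitochondria rose in 18 of 29 and fell in 3. The import chaperone Timm8a1 rose by 3.06 and the CCT subunits Cct3, Cct4, Cct5, Cct6a, Cct7 and Cct8 by 1.22 to 2.21 (Cct2, at -0.19, did neither), while the stress-induced Hspa1b went the other way, from 1655, 4717 and 2133 to 145, and Hspa1a from 1168, 5502 and 2342 to 189. These paralogs may share signal. In the endoplasmic reticulum list 7 of 23 rose and 2 fell (Canx, -1.79, and Dnajb9, -2.93), beside 19.5% and 32.3% of all kept genes. Among splicing factors 15 of 33 rose and 1 fell, but only 10 rose on all 3 arrays.

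Genes of nutrient uptake and metabolism rose in most of the lists. Of 20 glycolysis genes 12 rose and 2 fell (Hk1 and Pfkfb3), with a median of 1.45. Slc2a1, the glucose transporter GLUT1, went from 404, 149 and 461 to 1657, a difference of 2.26 (naive SD 0.75). Hk2, the hexokinase induced in growing cells, went from 305, 205 and 289 to 3396, a difference of 3.48, with a further probe set at -0.43. The glycolytic enzymes Tpi1 and Pgam1 rose by 3.39 and 3.15, both outside the naive range on all 3 arrays. Slc2a3, the glucose transporter GLUT3, did not rise (-0.79). Amino acid transport, serine and one-carbon genes rose in 12 of 21 and fell in 2. Slc7a5, the transporter of large neutral amino acids, went from 2452, 3008 and 3461 to 14324 (difference 2.26, naive SD 0.25). Psat1 of serine synthesis went from 1256, 1512 and 1350 to 20883 (difference 3.89, naive SD 0.13), whereas Phgdh, the enzyme before it, fell by 1.09. Mthfd2 of mitochondrial folate metabolism rose by 2.28. Bcat1, which transaminates branched-chain amino acids and was on no list, went from 128, 399 and 250 to 7564, a difference of 4.74. The transferrin receptor, the route of iron uptake, was read by 3 control probe sets of the array. The one nearest the 3' end gave 470, 515 and 333 in naive cells and 5898 at 24 h, and the other two also gave higher values at 24 h (1709 and 1847) than on any naive array (at most 283).

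In the cholesterol and fatty acid list 12 of 24 rose and 2 fell, with a median of 1.01. Idi1, an enzyme of isoprenoid synthesis, went from 395, 522 and 494 to 6674, a difference of 3.71 (naive SD 0.19). Sqle, squalene epoxidase, rose by 2.23 and Lss, lanosterol synthase, by 1.98. The desaturases parted, with Scd2 up by 2.44 and Scd1 down by 2.00. Abcg1, a cholesterol exporter, went from 4302, 6231 and 4226 to 569, a difference of -2.99. Mitochondrial respiration and citrate cycle genes rose in 17 of 41 and fell in 5, and 13 rose on all 3 arrays. Ndufc1 of complex I rose by 2.34, Uqcrq of complex III by 1.99 and Sdhb of complex II by 1.88, while Slc25a3, the phosphate carrier, fell by 2.29.

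**Figure D2:**
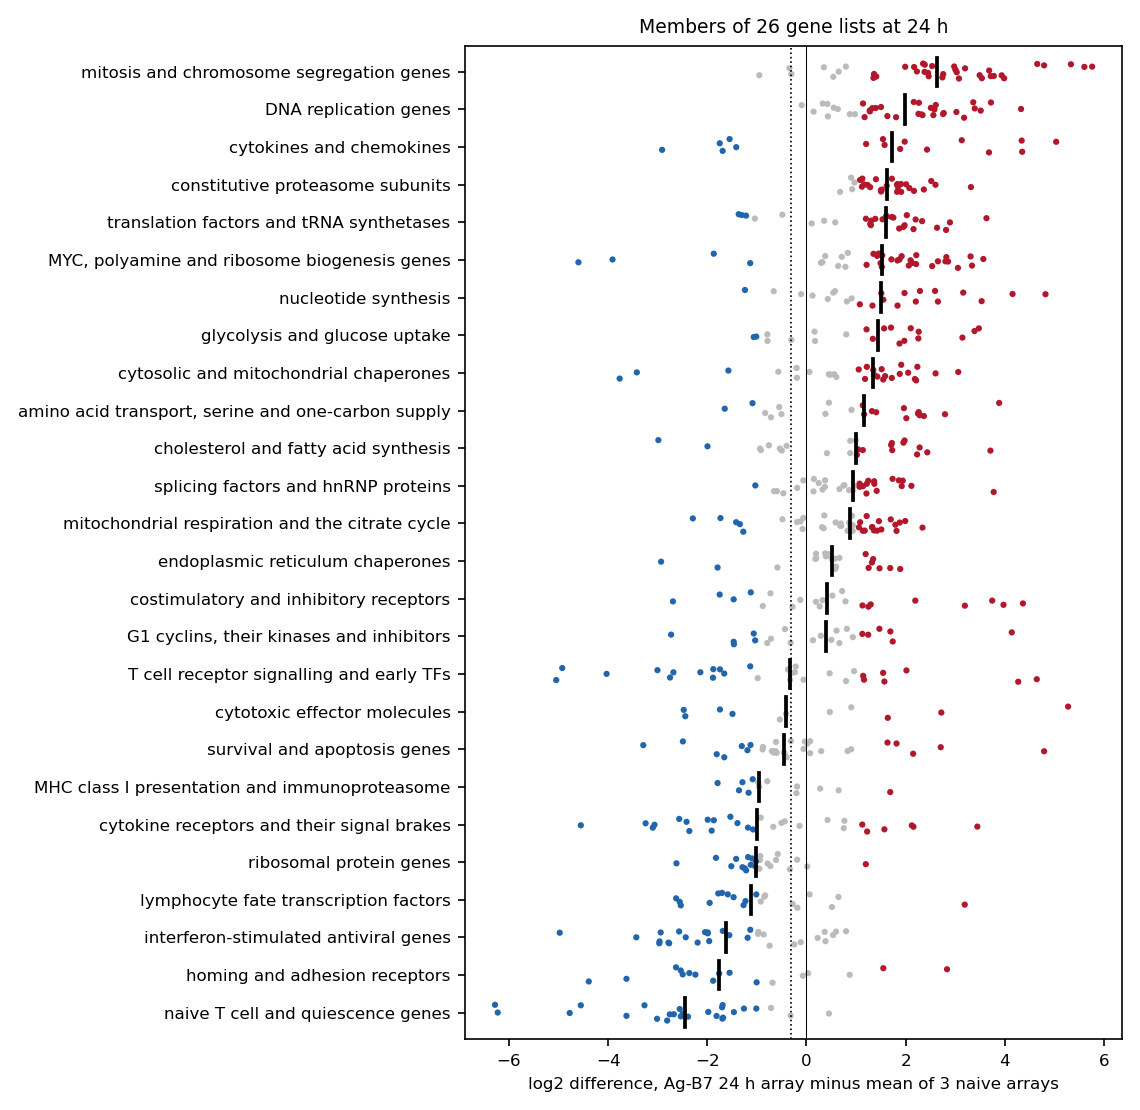
Each point is a kept gene of 1 of 26 gene lists, placed by its log2 difference between the Ag-B7 24 h array and the naive mean, in red where it rose, blue where it fell and grey where it did neither. Black bars mark list medians and the dotted line the median of all genes (-0.32), on the deposited values. Mitosis and replication genes lie at the top, and naive T cell genes at the bottom. With equal spike-in controls the medians of 8 of the lists whose median is negative here turn positive, and those of naive T cell and homing genes stay below it.

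Genes of the naive, quiescent state formed the opposite end. Of 26 kept members 0 rose and 23 fell, 21 on all 3 arrays, with a median of -2.44 that stayed below zero at -0.42 with equal spike-in controls. The counts depended on the scaling. After quantile normalization 0 rose and 20 fell, with equal array medians 1 and 16, and with equal spike-in controls 3 and 7. Klf2, a factor that keeps T cells quiescent and circulating, went from 12461, 5072 and 6006 to 50.9, a difference of -6.23 (74.9-fold lower, naive SD 0.69), and was at 57.3 and 59.9 on the other 24 h arrays. Il7r, the receptor chain through which naive cells receive survival signals, went from 7715, 3934 and 6602 to 205, a difference of -4.55. Vps37b, a subunit of the ESCRT-I sorting complex, went from 44184, 20647 and 39246 to 378, the largest fall of all kept genes on this scale (-6.28, naive SD 0.59). Cd7 went from 10323, 5172 and 6770 to 215. Further falls were those of Klf3 (-3.27), the antiproliferative genes Tob1 (-2.81) and Btg1 (-2.68), and Txnip, a brake on glucose uptake (-2.76). Slfn2, Cdkn2c and Cdkn2d did neither.

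Receptors for homing and adhesion fell in 11 of 17 kept members and rose in 2, and the median was -1.76 (-0.04 with equal spike-in controls). S1pr1, which lets T cells leave lymph nodes, went from 566, 1310 and 1079 to 32.6, a difference of -3.63 (naive SD 0.60). Cxcr4, a chemokine receptor, went from 1544, 1019 and 1304 to 16.4, a difference of -4.39. Ccr7, which guides cells into lymph nodes, stayed brighter, going from 17343, 9788 and 19736 to 2615 (difference -2.50), and Ccr9, a gut homing receptor, went from 1124, 965 and 714 to 110. All 4 were lower on all 3 arrays. Cd44 went from 33.7, 125 and 125 to 902, but CD44 was used to choose the naive cells and its further probe sets differed by -0.35 and -0.86, so its level is given as a description. Integrin Itgb1 rose by 1.55, and Itgb7 fell by 2.24, Itga4 by 2.36 and Itgae by 2.53.

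Genes of T cell receptor signalling and its early transcription factors moved in both directions. Irf4 went from 783, 760 and 653 to 14941, a difference of 4.27 (naive SD 0.13), with 16463 and 16207 on the other 24 h arrays. Irf8 went from 185, 399 and 406 to 8958 (difference 4.64, naive SD 0.55). Egr2 rose by 1.14 and was not past the fold on the Ag-B7+IFNa/b array (0.86), and Egr1 and Batf were at -0.30 and 0.96. In contrast Fos went from 14894, 7474 and 3876 to 204 (difference -4.93, naive SD 0.96), Dusp1, a MAP kinase phosphatase, from 14973, 4586 and 5535 to 400, and Jun from 1154, 644 and 281 to 49.6. Nr4a1, a marker of recent receptor signals, went from 6059, 4678 and 6458 to 1510 (difference -1.88), and its sign turned to 0.12 with equal spike-in controls. Tnfaip3, the A20 inhibitor of NF-kB signals, went from 17767, 7860 and 10030 to 293 (difference -5.05). In the naive group replicate 1 was the highest for Fos, Dusp1, Jun and Tnfaip3, and every naive value was above every 24 h value. Of the 29 kept members 7 rose and 12 fell, not far from the shares of all kept genes (19.5% and 32.3%). The median of -0.33 lay at -0.01 relative to the median gene. The list median turned to 0.57 with equal array medians and 1.57 with equal spike-in controls.

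Lymphocyte fate factors fell in 11 of 20 kept members and rose in 1, with a median of -1.12 (-0.80 relative to the median gene) that turned to 0.82 with equal spike-in controls. The 1 that rose was Bhlhe40, a regulator of cytokine output and metabolism, from 190, 97.2 and 556 to 2453. Bcl6, the antagonist of effector programmes, fell by 2.63, the genome organiser Satb1 by 2.56, Ets1 by 2.53 and Lef1 by 1.70. Eomes, a factor of memory and effector CD8 cells, differed among the 24 h arrays: it was at 555, 513 and 718 in naive cells, at 225 with Ag-B7, at 374 with Ag-B7+IL12 and at 1158 with Ag-B7+IFNa/b. Its fall of 1.23 thus held on the Ag-B7 array and on neither other array, and turned to 0.51 with equal spike-in controls.

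Of 16 kept cytokine genes 11 rose and 5 fell, with a median of 1.73. Dim members could pass the filter through the 24 h arrays alone: without the filter the list had 24 members, of which 11 rose and 9 fell, and the median turned to -0.52. Ccl4, an inflammatory chemokine, went from 166, 285 and 156 to 7913 (difference 5.04, naive SD 0.39). Ccl3, its neighbour in function, rose by 3.68 and Xcl1, which attracts cross-presenting dendritic cells, by 4.35, from 353, 632 and 282 to 9054. Lta, lymphotoxin alpha, went from 241, 178 and 290 to 5607 on the probe set used, and its dimmer probe set differed by -2.73. Ifng, interferon gamma, went from 74.9, 20.3 and 32.8 to 709 with Ag-B7 (difference 3.13, naive SD 0.44). It was at 1765 with Ag-B7+IFNa/b and at 13398 with Ag-B7+IL12, so the Ag-B7 array was the lowest of the 3. Il2 was dim, at 10.7, 24.2 and 12 in naive cells and 138 at 24 h, and a control probe set for mouse IL-2 gave 78.2, 151 and 58.6 in naive cells and 1049 at 24 h. Csf2 and Tnf rose by 1.89 and 1.98. The members that fell were Ccl5 (-2.91), Il5 (-1.75), Ltb (-1.69), Csf1 (-1.55) and Ccl1 (-1.42).

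Of 28 kept genes of cytokine receptors and their signal brakes 6 rose and 14 fell, beside 19.5% and 32.3% of all kept genes. The median of -0.999 (-0.68 relative to the median gene) turned to 0.83 with equal spike-in controls, where 13 rose and 4 fell. Il2ra, the high-affinity chain of the IL-2 receptor, went from 12.2, 214 and 27 to 1084 (difference 3.45, naive SD 1.16). Both chains of the IL-12 receptor rose, Il12rb1 from 219, 456 and 268 to 1469 and Il12rb2 from 91.4, 86.9 and 614 to 979. Both chains of the interferon gamma receptor fell, Ifngr1 from 7092, 4455 and 7389 to 677 and Ifngr2 from 2055, 769 and 1546 to 101. Of the chains of the type I interferon receptor, Ifnar1 fell by 1.54 and Ifnar2 did neither (0.43). The signal brakes Cish, Socs2 and Socs1 rose by 1.57, 1.22 and 1.13, and Socs3 fell by 3.07.

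Costimulatory and inhibitory receptors rose in 8 of 22 and fell in 4, beside 19.5% and 32.3% of all kept genes, with a median of 0.42. Tnfrsf9 (4-1BB) went from 110, 54.4 and 99.6 to 2674, a difference of 4.37, with a further probe set at -1.08. Tnfrsf4 (OX40) went from 378, 255 and 332 to 3289 and Cd200 from 145, 267 and 308 to 4306. The inhibitory receptors Lag3 and Pdcd1 rose by 3.75 and 1.30, while Ctla4 (0.52), Icos (-0.12) and Cd28 (0.27) did neither.

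Of 11 cytotoxic effector genes 3 rose and 4 fell, near the shares of all kept genes (19.5% and 32.3%). Gzmb, the granule protease granzyme B, went from 244, 583 and 632 to 19292 (difference 5.28, naive SD 0.68), and reached 31122 and 35324 on the Ag-B7+IL12 and Ag-B7+IFNa/b arrays. Serpinb9, the inhibitor that protects the cell from its own granzyme B, went from 584, 1156 and 768 to 5564. Prf1, the pore protein perforin, was lower, from 1831, 1069 and 905 to 401, and its difference of -1.49 turned to 0.36 with equal spike-in controls. Gzma fell by 2.48 and Ctsw by 2.44. The list median of -0.41 (-0.09 relative to the median gene) turned to 0.49 with equal array medians, 1.61 with equal spike-in controls and 0.03 with a filter at the 60th percentile, and granzyme probe sets may share signal.

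Of 32 survival genes 5 rose and 7 fell, no more than the shares of all kept genes (19.5% and 32.3%). Their median of -0.45 (-0.13 relative to the median gene) turned to 0.44 with equal array medians and 1.40 with equal spike-in controls. Bcl2l1 (BCL-XL) went from 729, 1482 and 993 to 4718 and Bid, a pro-death member, from 422, 68.4 and 114 to 1294. Bcl2 and Mcl1 did neither, at -0.70 and 0.02, and the pro-death Bcl2l11 (BIM) fell by 1.30. Bcl3, a partner of NF-kB, went from 1552, 359 and 2365 to 72.1 with Ag-B7 and was at 96 with Ag-B7+IFNa/b, but stood at 1002 with Ag-B7+IL12.

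**Figure D3:**
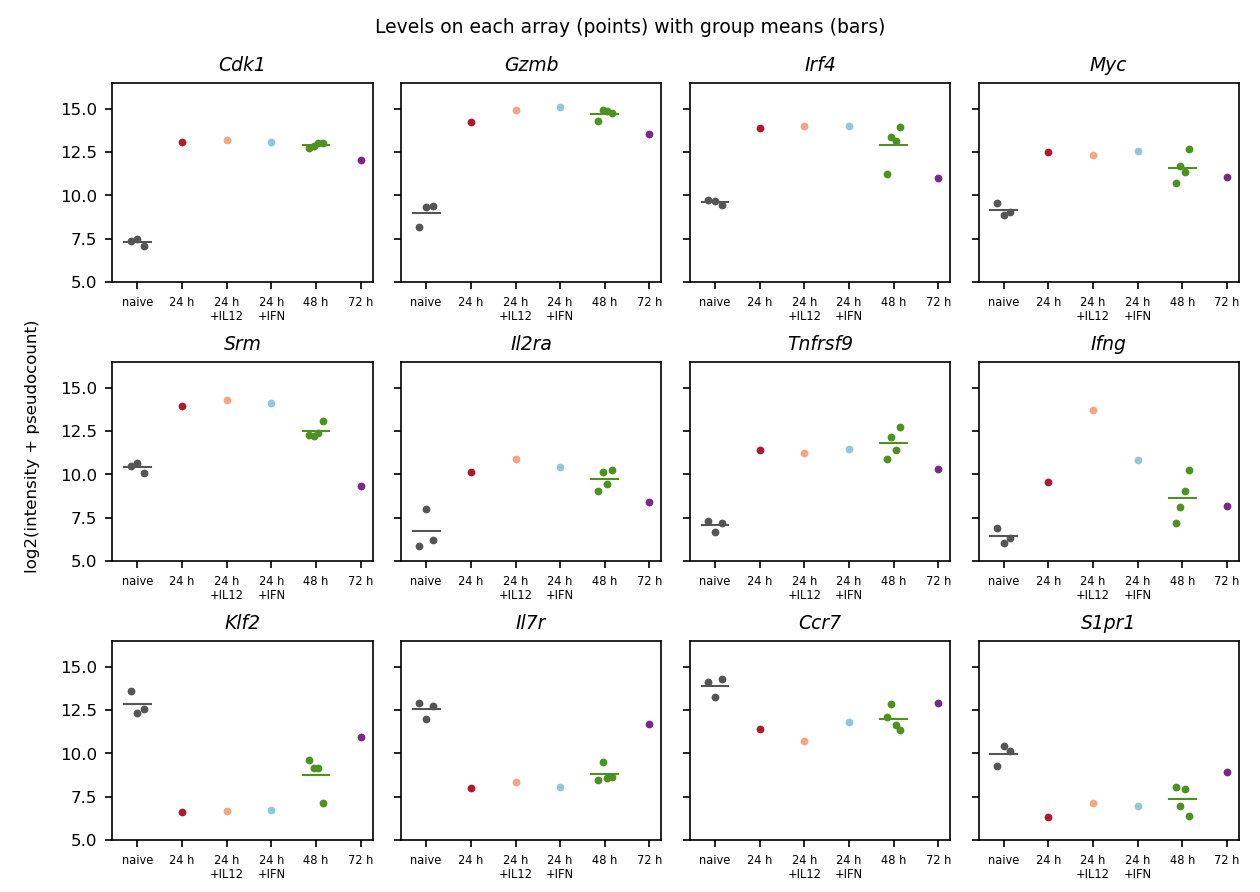
Each panel shows 1 gene, with every array as a point on the scale log2(intensity + 46.4) and bars for the means of the 3 naive and the 4 Ag-B7 48 h arrays. The 24 h points are Ag-B7, Ag-B7+IL12 and Ag-B7+IFNa/b, 1 array each, and 72 h is Ag-B7. The upper 8 genes stand above all naive arrays at 24 h and the lower 4 below them, and Ifng differs most among the 24 h arrays.

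Interferon-stimulated genes separated the 24 h arrays. On the Ag-B7 array 0 of 30 kept members rose and 18 fell, with a median of -1.62 that turned to 0.09 with equal spike-in controls and lay at -1.38 to -1.10 relative to the median gene under the 4 scalings compared. On the Ag-B7+IL12 array 0 rose and 21 fell. On the Ag-B7+IFNa/b array, where interferon was in the culture, 6 rose and 5 fell. Irf7, the regulator that amplifies interferon output, went from 4382, 2472 and 3493 to 61.7 with Ag-B7 and 50.7 with Ag-B7+IL12, and was at 1055 with Ag-B7+IFNa/b. Isg15, a ubiquitin-like protein, went from 2781, 2034 and 1885 to 369 with Ag-B7 and to 11567 with Ag-B7+IFNa/b. Usp18, which removes ISG15 and damps the receptor, was at 736, 228 and 555 in naive cells, 19.5 with Ag-B7 and 3888 with Ag-B7+IFNa/b. Across all kept genes 4 were past the fold in opposite directions on the Ag-B7 array and another 24 h array, each against Ag-B7+IFNa/b. They were Isg15, Usp18, Trim30a (-1.96 against 1.23) and the predicted gene Gm9706 (-2.35 against 2.87), the last 2 named after their values were seen. Among the 12 members that did neither with Ag-B7 were Iigp1 (0.80), Gbp2 (0.54), Irgm1 (0.38), Igtp (0.23), Irgm2 (-0.74) and Gbp3 (-0.98). These encode GTPases known to respond to interferon gamma. Of 13 class I presentation genes 5 fell and 1 rose, near the 32.3% of all kept genes that fell, and 3 fell on all 3 arrays. The median of -0.96 (-0.64 relative to the median gene) turned to 1.08 with equal spike-in controls. H2-K1 and H2-D1, heavy chains of class I molecules, fell by 1.29 and 1.36, and both signs turned with equal spike-in controls (0.74 and 0.67).

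**Figure D4:**
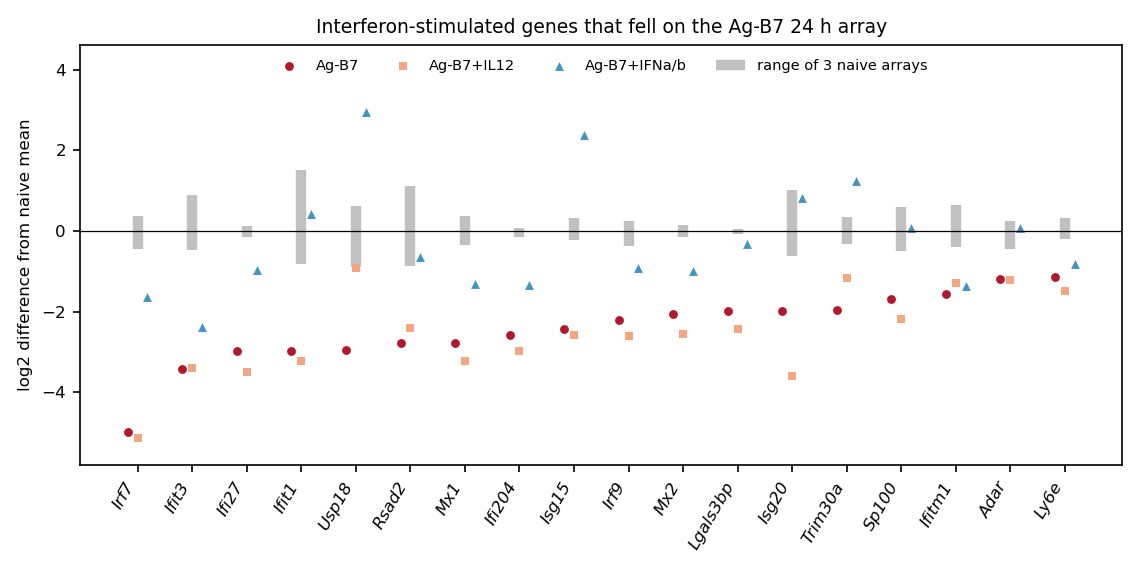
The 18 interferon-stimulated genes that fell on the Ag-B7 24 h array are placed by their log2 difference from the naive mean on the Ag-B7 (circles), Ag-B7+IL12 (squares) and Ag-B7+IFNa/b (triangles) arrays, and grey bars give the range of the 3 naive arrays. Circles and squares lie low together, while triangles are higher and exceed the naive range for Usp18, Isg15 and Trim30a. With equal spike-in controls the median of the whole list on the Ag-B7 array is 0.09.

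The interferon-stimulated response element is known as a pair of GAAA blocks with 2 bases of any kind between them. That pattern was searched on both strands, and overlapping matches were counted. Of the 23 kept members with a RefSeq promoter 12 held it (52.2%), and of the 12 that fell 5 did (41.7%), against 4.33% of all genes that fell and 3.99% of all genes with a promoter. The windows show Isg15 (chr4:156200850-156200921, minus strand), Ifit1 (chr19:34640760-34640838, plus strand), Ifit3 (chr19:34583348-34583441, plus strand) and Rsad2 (chr12:26456538-26456597, minus strand), which fell, and Igtp (chr11:58199497-58199555, plus strand), which did not. Capitals mark the matches, and a match on the other strand reads as paired TTTC blocks.
Isg15: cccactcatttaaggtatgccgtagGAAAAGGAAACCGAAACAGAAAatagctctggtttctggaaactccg
Ifit1: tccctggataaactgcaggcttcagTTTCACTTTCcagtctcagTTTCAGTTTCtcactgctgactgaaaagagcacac
Ifit3: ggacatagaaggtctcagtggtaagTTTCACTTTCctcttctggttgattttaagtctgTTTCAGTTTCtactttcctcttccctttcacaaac
Rsad2: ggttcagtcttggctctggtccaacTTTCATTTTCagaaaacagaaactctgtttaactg
Igtp: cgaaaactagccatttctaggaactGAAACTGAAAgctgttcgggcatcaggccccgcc
The Isg15 window holds 3 overlapping matches. Ifit1 and Ifit3 hold 2 each, yet on the Ag-B7+IFNa/b array Ifit1 stood at 699, within the naive values of 1529, 267 and 299, and Ifit3 at 163, below its naive values of 1975, 739 and 775.

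Most kept members of the marker lists for cells other than CD8 T cells were lower at 24 h on the deposited values. Of 9 B cell markers 0 rose and 5 fell, and of 10 myeloid markers 9 fell. Falls numbered 3 of 4 NK, 3 of 3 erythroid and platelet, 4 of 5 stromal and 1 of 1 CD4 T cell markers. Of all kept genes 32.3% fell. Dim markers could pass the filter through the naive arrays alone. Without the filter 6 of 14 B cell, 13 of 20 myeloid and 4 of 5 NK markers fell. So did 4 of 6 erythroid, 5 of 10 stromal and 1 of 3 CD4 markers. After quantile normalization the kept lists had 4, 3, 3, 1, 4 and 0 that fell, in that order. The medians of the B cell, myeloid, stromal and CD4 lists turned positive with equal spike-in controls. Summed intensity of the myeloid list was 15410 to 20590 on the naive arrays and 4859 on the Ag-B7 24 h array. For the B cell list it was 16430 to 22280 and then 9823, and for the NK list 7440 to 8482 and then 1214. For the erythroid list it was 7115 to 15380 and then 559.5. On the Ag-B7 72 h array these sums were 10600, 18670, 34140 and 665.4, in the same order. Klrd1 made up most of the NK sum, at 7197, 5778 and 7257 in naive cells, 809 at 24 h and 27859 at 72 h. Klrk1 of the same list was at 153, 192 and 163 in naive cells, 270 at 24 h and 5804 at 72 h. Whether Klrd1 and Klrk1 come from NK cells or from the CD8 T cells themselves was not tested, so the NK sum is not a measure of NK cells. Ighm made up most of the B cell sum, at 12994, 11980 and 9351 in naive cells, and did neither on the probe set used (-0.70). It was read by 16 probe sets, of which the brightest was used. All the others were also lower at 24 h than the naive mean, most of them by more than 2-fold. Whether Ighm RNA held steady thus depends on the probe set. Hba-a1, a haemoglobin chain, went from 6780, 6025 and 13996 to 264, and C1qb, a complement chain of macrophages, from 703, 3042 and 1059 to 40.6. Their part in the falls of other genes was not tested. Summed CD8 T cell markers were at 163700, 88360 and 107600 in naive cells and 92290 on the Ag-B7 24 h array. They were at 75860 with Ag-B7+IL12 and 82370 with Ag-B7+IFNa/b, below each naive array. On the Ag-B7 array 1 of 14 rose (Lcp2) and 2 fell (Lat and Cd2). On the Ag-B7+IL12 array 6 fell, and on the Ag-B7+IFNa/b array 4. Of 7 reference genes 3 rose (Gusb, Hprt and Tubb5) and 1 fell (Actb, -1.79).

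Levels at 24 h were next set against those at 48 h. Against the mean and range of the 4 Ag-B7 arrays at 48 h, 103 genes were at least 2-fold higher at 24 h (1.67% of those kept) and 200 lower (3.23%). Without 48 h replicate 4, the array that correlated best with the 24 h array (0.966), 163 genes were higher and 255 lower. Of the genes higher than naive on all 3 arrays 982 (94.1%) were not past the fold against 48 h, and of those lower 1440 (93%), shares close to that of all kept genes. None of the 36 replication genes and 2 of the 38 mitosis genes differed past the fold from 48 h. Cdk1 was at 6755 to 8356 at 48 h and 4160 at 72 h, and Gzmb at 20017 to 30967 and then 11775.

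A group of 54 genes was higher at 24 h than in naive cells on all 3 arrays and higher than at 48 h. Lta went from 5607 at 24 h to 495, 1487, 1046 and 4877 at 48 h. Tnf went from 840 to 97.1, 174, 99 and 576, and Csf2 from 385 to 11.9, 34.2, 137 and 210. For these 3 cytokines 48 h replicate 4 was the nearest to the 24 h level. Il2 was at 4.96 to 12.6 at 48 h, near its naive level, and the control probe set for IL-2 went from 1049 to 39.1, 42.5, 40.9 and 151. Of the 16 cytokine genes 6 were higher at 24 h than at 48 h and 2 lower. Growth genes in this group included Srm (15850 against 4776, 4597, 5368 and 8600, then 591 at 72 h), Slc7a5 (14324 against 2966 to 13269) and Wdr77, a partner of the methyltransferase PRMT5 (8361 against 1682 to 4908). Slc29a2, a nucleoside transporter, was at 338 at 24 h and at 28.4 to 48.6 at 48 h, against 41.8, 93.1 and 95.6 in naive cells. Crabp2, a retinoic acid binding protein, and the small GTPase Rab34 followed, at 537 and 300 at 24 h against at most 243 and 138 at 48 h. Myc (5646 against 1606, 3226, 2553 and 6366) and Irf4 (14941 against 2351, 10366, 9041 and 15643) overlapped the 48 h arrays, through replicate 4.

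A larger group of 101 genes was lower at 24 h than in naive cells on all 3 arrays and lower than at 48 h. Ccng2 went from 1978, 1159 and 2629 in naive cells to 235 at 24 h and was back at 1993 to 4033 at 48 h. Myb, a transcription factor of progenitor and memory cells, went from 6380, 2352 and 8575 to 1037 and then to 3162 to 6435. Cxcr4 (16.4) stood at 319 to 741 at 48 h and at 1492 at 72 h, and Klf2 (50.9) at 94.5 to 724 and then at 1922. Smpdl3a, a phosphodiesterase of macrophages and other cells, went from 1683 to 2798 in naive cells to 96.3 and then to 246 to 821, and reached 4917 at 72 h. Lpin1, a phosphatidate phosphatase, Rgs11, a regulator of G protein signals, and Scd1 also had their lowest levels at 24 h. The 8 genes higher than naive on all 3 arrays but lower than at 48 h included Scd2 (4824 against 14180 to 24550) and Fdps of isoprenoid synthesis (5676 against 8981 to 17406), and 4 of the 24 lipid genes were lower at 24 h than at 48 h.

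**Figure D5:**
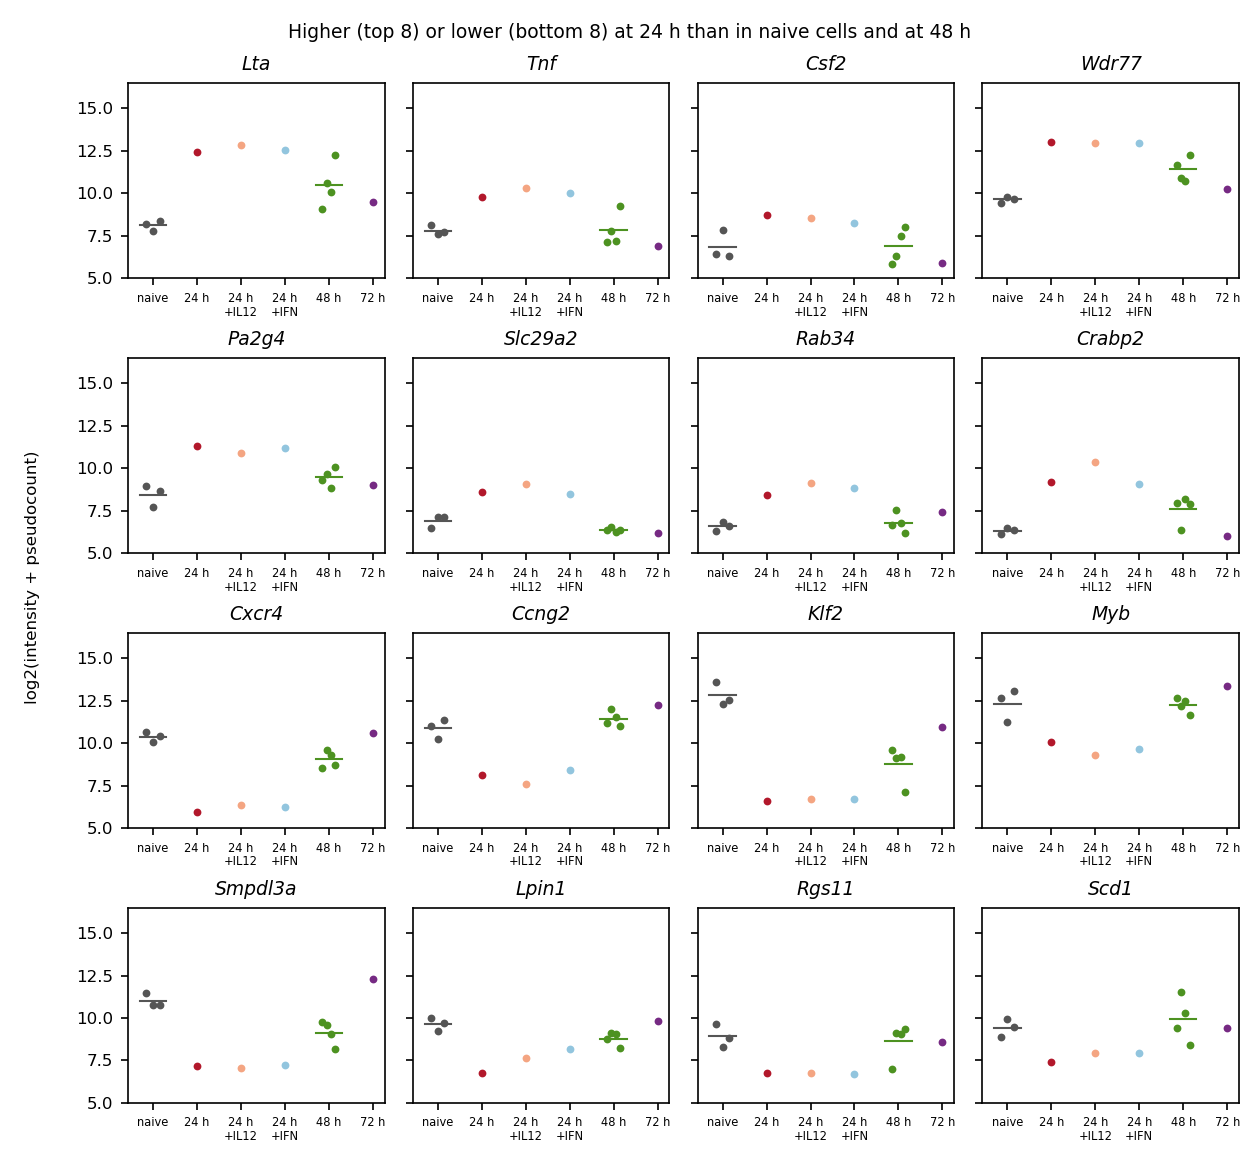
Each panel shows 1 gene with every array as a point on the scale log2(intensity + 46.4), and bars for the means of the 3 naive and 4 Ag-B7 48 h arrays. The upper 8 genes were highest at 24 h and the lower 8 lowest, against naive and 48 h cells. At 48 h the highest of the Lta and Tnf points is replicate 4, nearest to the 24 h level.

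Few genes were past the fold on the Ag-B7 24 h array and on neither other 24 h array, 50 upward and 122 downward. With 1 array per condition these differences have no replicate check. Among the largest upward, Kif1c, a kinesin, was at 361 against 195 and 193 on the other 24 h arrays, Slc9b2, an ion exchanger, at 264 against 164 and 125, Cog5 of the Golgi at 371 against 183 and 297, and Cyhr1 at 1013 against 778 and 796. Downward they included Rag1, the recombinase, which read 412, 1438 and 189 in naive cells, 61.8 with Ag-B7 and 459 and 232 on the other arrays, and Ptprf, at 36.6 against 146 and 198. Timp1, an inhibitor of metalloproteinases, varied from 519 to 9110 in naive cells and was at 455, 940 and 1015 on the 24 h arrays.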

How the data were processed

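Total RNA was labelled from 10 ug per sample and hybridised to 1-colour Affymetrix arrays, per the labels' protocols. The authors deposited intensity values for 12488 probe sets, made with MAS5 per the submitters' processing notes, with neither its version nor its scaling target given in the sources used here. On the 11 arrays used, the mean after trimming both ends was 1000.46 to 1000.73, so arrays had been set to 1 mean, and differences are relative to total labelled RNA. Gene names came from the platform annotation (10833 probe sets with 1 symbol, 396 with several, 1237 not listed), checked against RefSeq (GRCm38.p6). Control probe sets (66) were kept apart. Where a gene had more than 1 probe set (2073 genes), the brightest by mean log2 level over the 20 arrays was used, and 14 of 141 named genes had another probe set of opposite sign.

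From the deposited intensity, log2(value + 46.4) was computed here, the pseudocount being the median over arrays of the 20th percentile. Genes were kept above their array's 40th percentile on 2 of 6 arrays (6185). Past the fold means a log2 difference of at least 1 and a level outside the range of the replicated group. Named genes were the 12 largest rises and falls, up to 4 per list, 8 each of the genes above or below both naive and 48 h levels, the 4 largest per direction found on the Ag-B7 array alone, and a fixed list, and other list members were named to describe their list. The comparison, the 26 gene lists and the 8 marker lists were chosen with earlier results of these data known. The labels call the replicates biological. The fold rule was tested on simulated data. Python 3.11.15, numpy 2.4.6 and pandas 2.3.3 were used. Alternatives were 3 other scalings, 2 pseudocounts, 2 filters, the mean of all probe sets, no condition on the range, and leaving out each replicate. The precision of all values is limited by how few arrays there are.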

Additional observations from a re-analysis of the deposited data

Results flagged for a closer look

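Among the 141 named genes, 8 had 1 of the 4 Ag-B7 48 h arrays far from the other 3, by Dixon's ratio of gap to range, which chance passes in about 1 of 20 such groups. On the log2 scale these were Crabp2 (6.37 on replicate 2, the others up to 8.18), Il7r (9.49 on replicate 2, the next at 8.62), Kif1c (6.85 on replicate 3), Rgs11 (6.98 on replicate 1, the others up to 9.34), Rrm2 (12.72 on replicate 2), Timp1 (8.89 on replicate 2), Tk1 (12.37 on replicate 4) and Vps37b (8.22 on replicate 3). The 3 naive arrays were not put through this check.

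Isg15 and Usp18 were past the fold in opposite directions at 24 h. Isg15 differed from the naive mean by -2.44 with Ag-B7 and by 2.37 with Ag-B7+IFNa/b, and Usp18 by -2.94 and 2.96. With 1 array per condition the difference between these arrays was not tested.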

How the results depend on the processing

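No paired analysis was possible because the 24 h groups have 1 array each and no result comes from a test. The counts of genes higher and lower against naive (1209 and 1996), on all 3 arrays (1044 and 1548) and against 48 h (103 and 200) depended most on scaling. Quantile normalization gave 1312 lower, 982 lower on all 3 arrays and 132 lower than 48 h. Equal medians gave 2372 and 726, 2025 and 381, and 198 higher than 48 h. Equal spike-in controls gave 3753 and 140, 3390 and 44, and 246 and 115. A pseudocount of 200 left 44 and 86 against 48 h, and a filter at the 60th percentile left 1213 lower, 1012 lower on all 3 arrays and 111 lower than 48 h, with fewer genes kept. Leaving out 1 naive array gave 1095 to 1327 higher and 1855 to 2143 lower (938 to 1166 and 1306 to 1787 on all 3 arrays), and leaving out 1 array at 48 h gave 96 to 163 and 182 to 255, the highest without replicate 4. List medians turned with equal medians for T cell receptor and early factors (0.57), cytotoxic (0.49), survival (0.44) and CD8 identity genes (0.56). With equal spike-in controls they turned for those lists (1.57, 1.61, 1.40 and 1.65), fate factors (0.82), cytokine receptors (0.83), interferon-stimulated (0.0905), class I (1.08) and ribosomal protein genes (0.94), and markers of B cells (0.59), myeloid (0.11), CD4 (0.46) and stromal cells (0.20). Without a filter cytokines turned (-0.52), and at the 60th percentile cytotoxic genes (0.03). Relative to the median gene, 31 of 34 lists kept 1 sign under the 4 scalings. The named genes that turned with equal spike-in controls were Canx (0.15), Eomes (0.51), H2-D1 (0.67), H2-K1 (0.74), Nr4a1 (0.12), Prf1 (0.36), Rps24 (0.52), Rps27 (0.18) and Rps28 (0.62), and 111 of 140 named genes stayed past the fold there, 134 after quantile normalization and 130 with equal medians. For changes between scalings other than by construction, the cause was not tested. Dim genes such as Il2 and Csf2 are limited by the signal over background.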
